A study of Ovis aries with 4 samples.

Results

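The BMP, NODAL and follistatin signalling genes described here are FST, BMP2, BMP4, TGFBR1, NODAL and GDF3. They were taken by symbol from the feature table of the series, and all 6 were found among its 25197 features. They belong to the TGF-beta superfamily pathway, in which a secreted ligand dimer joins type I and type II receptor kinases that phosphorylate SMAD proteins, and secreted antagonists such as follistatin hold the ligand away from its receptors. Receptors for BMPs act through SMAD1 and SMAD5, whereas receptors for TGF-beta, activin and NODAL act through SMAD2 and SMAD3. In the mouse embryo, NODAL from the epiblast and BMP4 from the extraembryonic ectoderm pattern the body axis, and GDF3 acts in the same pathway as NODAL.

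The samples were 4 sheep conceptuses (Ovis aries) flushed from the uterine horn on day 14 of pregnancy, 1 from each of 4 ewes bred from Columbia and Rambouillet stock. The word conceptus covers the embryo proper and all extraembryonic membranes, which on this day form a lengthening thread of mostly trophectoderm cells. Total RNA of each whole conceptus was depleted of ribosomal RNA and sequenced, and no treatment or second group is labelled. The values therefore give levels within 1 group of 4 animals and the spread between them. Embryo and membranes were not sequenced apart, so fewer cells of a type and less RNA per cell cannot be told apart in any value below.

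Levels are RPKM, reads scaled to transcript length and library size, so that genes can be set beside each other. Comparisons between genes also rest on the annotation and read counting used, which are not given. An error there could recur in all 4 conceptuses and would not show as a spread between them. Summed RPKM per library lay between 454387 and 522308. Absolute depth is not known. From the values of features above 0 in only a pair of libraries, the depths of conceptuses 2, 3 and 4 were about 0.747, 1.06 and 0.669 of that of conceptus 1. Across features, which are not independent replicates, Pearson's r between any 2 libraries was 0.982 to 0.990 for log2(RPKM + 1). Of all features with a gene symbol, 52.9% averaged 1 RPKM or more. All 11 measured trophectoderm markers did so, led by KRT8, PTGS2, CLDN6, EPCAM and CDH1. Their summed level was 6803 to 10312 RPKM, of which KRT8 alone gave 4983 to 8256 RPKM. The epiblast list had 5 of 10 genes averaging 1 RPKM or more, with LIN28A, DNMT3B, ZFP42 and SALL4 above POU5F1. UTF1, DPPA3 and FGF4 were listed at 0 in every library. The summed level of the epiblast list was 285 to 335 RPKM, of which LIN28A gave 189 to 223 RPKM and DNMT3B 55.6 to 68.7 RPKM. NANOG and SOX2 averaged 0.46 and 0.085 RPKM. The hypoblast and yolk sac endoderm list had 7 of 12, led by APOA1, DAB2 and RBP4, and summed to 444 to 753 RPKM. The mesoderm list had 2 of 11, VIM and SNAI2, with a sum of 12.3 to 17.7 RPKM. The endometrium list had 3 of 8, FXYD4, LGALS15 and GRP, with a sum of 224 to 435 RPKM, and PGR was listed at 0 in every library. The list of blood, endothelium and leukocytes had 2 of 8, GATA1 and CD68, with a sum of 4.46 to 9.66 RPKM.

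The 6 genes spanned a wide range of levels, in which the antagonist FST was the highest and the ligands NODAL and GDF3 were the lowest. Of the 6, 4 averaged 1 RPKM or more, against 52.9% of features with a gene symbol and 38.1% of all features. An average of 5 RPKM or more was reached by 2 of 6, FST and TGFBR1, against 35.2% of features with a symbol and 25.3% of all features. The median of the 6 means was 2.42 RPKM, and that of all features with a symbol was 1.43 RPKM. FST lay above 88.2% of features with a symbol and TGFBR1 above 78.7%, while BMP2 and BMP4 lay above 56.2% and 54.7%, and GDF3 and NODAL above 36.04% and 32.1%.

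**Figure D1:**
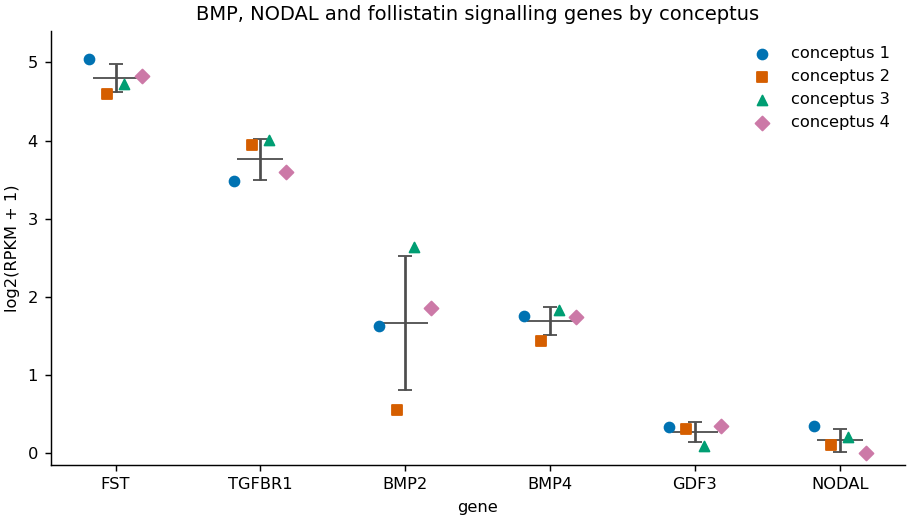
Level of each gene in each conceptus on the log2(RPKM + 1) scale, with 1 point per conceptus and the mean with its SD over 4 conceptuses as lines. FST stands highest in all 4 conceptuses, BMP2 and BMP4 share a mean level but not a spread, and GDF3 and NODAL lie near 0.

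FST encodes follistatin, a secreted glycoprotein that binds activins tightly and some BMPs less tightly. It was at 31.9, 23.3, 25.5 and 27.4 RPKM in conceptuses 1 to 4, with a mean of 27.0 ± 3.64 RPKM (SD, n = 4). Its values lay close together, the highest library at 1.37 times the lowest. FST exceeded TGFBR1, the next of the 6, in 4 of 4 conceptuses, by 1.04 ± 0.43 on the log2(RPKM + 1) scale.

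FST held 58.5 ± 4.20% of the summed RPKM of the 18 measured secreted antagonists and modulators, from 54.7% in conceptus 1 to 63.9% in conceptus 3. The list median was 0.922 RPKM. Of these 18 genes, 9 averaged 1 RPKM or more, against 52.9% of features with a symbol, and 3 averaged 5 or more, against 35.2%. Only 3 were at 1 RPKM or more in every library, and 6 averaged that much without conceptus 1. FSTL1, a follistatin-like glycoprotein, came after FST at 5.42 ± 3.73 RPKM, with 10.8 RPKM in conceptus 1 and 2.29 to 4.72 RPKM in the others. TWSG1, which modulates BMP binding by chordin, was at 5.04 ± 1.38 RPKM. The BMP antagonist CHRDL1 was at 1.36 ± 0.620 RPKM and the latent TGF-beta binding protein LTBP3 at 1.29 ± 0.564 RPKM. The matrix protease HTRA1 and the small proteoglycan DCN were at 1.10 ± 0.489 and 1.05 ± 0.609 RPKM.

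NOG, the BMP antagonist noggin, was at 2.45, 0.96, 0.38 and 1.43 RPKM in conceptuses 1 to 4. FSTL3, a second activin-binding protein related to follistatin, was at 2.49, 0.42, 0.67 and 1.41 RPKM. Both were highest in conceptus 1 and under 1 RPKM in conceptuses 2 and 3. CHRD, the BMP antagonist chordin, was at 0.1 to 0.2 RPKM. FST was above each of these 3 genes in 4 of 4 conceptuses, by 3.67 ± 0.43 over NOG, 3.72 ± 0.40 over FSTL3 and 4.61 ± 0.14 over CHRD on the log2(RPKM + 1) scale. CER1, which binds NODAL and BMPs, was at 0.51 to 1.09 RPKM. Activin genes, whose products follistatin binds, were low: INHBA was at 0.77 RPKM in conceptus 1 and 0.04 to 0.12 RPKM in the others, and INHBB was not analysed here.

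BMP2 and BMP4 encode closely related BMP ligands. BMP4 was at 2.38, 1.7, 2.57 and 2.33 RPKM in conceptuses 1 to 4, a mean of 2.25 ± 0.378 RPKM with the highest library at 1.51 times the lowest. BMP2 was at 2.08, 0.47, 5.23 and 2.61 RPKM, a mean of 2.60 ± 1.98 RPKM with the highest library at 11.1 times the lowest. The 2 ligands thus had overlapping levels, but BMP2 was low in conceptus 2 and high in conceptus 3, while BMP4 was nearly level. Without conceptus 3 the BMP2 mean was 1.72 RPKM, and without conceptus 2 it was 3.31 RPKM. BMP2 was above BMP4 in 2 of 4 conceptuses, and their difference was −0.02 ± 0.69 on the log2(RPKM + 1) scale (two-sided exact sign-flip permutation test, p = 0.875, adjusted p = 0.875), or −0.17 with a pseudocount of 0.1 in place of 1.

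BMP7, a ligand of another BMP subgroup, was higher than both. It was at 14.5, 6.62, 8.89 and 6.85 RPKM, a mean of 9.21 ± 3.65 RPKM (SD, n = 4). BMP4 lay below BMP7 in 4 of 4 conceptuses by a log2(RPKM + 1) difference of −1.60 ± 0.41, and BMP2 likewise in 4 of 4 by −1.62 ± 0.86. BMP6, of the same subgroup as BMP7, was at 5.19 RPKM in conceptus 1 and 1.46 to 2.2 RPKM in the others. Summed over BMP2, BMP4, BMP6 and BMP7, a set chosen after its values were seen, the BMP level was 24.1, 10.2, 18.4 and 14.0 RPKM in conceptuses 1 to 4. BMP7 held 48.3% to 64.6% of this sum. FST was above the sum in every conceptus, at 1.32, 2.27, 1.39 and 1.96 times its level.

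Among all 26 measured TGF-beta superfamily ligands, 5 averaged 1 RPKM or more, against 52.9% of features with a symbol. These were BMP7, BMP6, BMP2, BMP4 and GDF11, a ligand related to myostatin at 2.52 ± 1.08 RPKM. Only BMP7 averaged 5 RPKM or more, against 35.2% of features with a symbol. Of the 26, 4 (BMP15, GDF10, INHBC and AMH) were listed at 0 in every library, and the list median was 0.145 RPKM. GDF6 was at 0.48 to 1.62 RPKM. The 3 TGF-beta genes TGFB1, TGFB2 and TGFB3 were each between 0.16 and 0.71 RPKM. The summed level of the list was 29.7, 14.9, 24.5 and 21.1 RPKM in conceptuses 1 to 4, with conceptus 2 the lowest.

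NODAL and GDF3 were both under 1 RPKM in all 4 conceptuses. NODAL was at 0.27 RPKM in conceptus 1, 0.07 RPKM in conceptus 2 and 0.15 RPKM in conceptus 3, and it was listed at 0 in conceptus 4. GDF3 was at 0.26, 0.24, 0.06 and 0.27 RPKM. GDF3 was above NODAL in 2 of 4 conceptuses, with a log2(RPKM + 1) difference of 0.11 ± 0.21 (two-sided exact sign-flip permutation test, p = 0.5, adjusted p = 0.536), or 0.55 with a pseudocount of 0.1, so their order was not settled by these libraries. Of the 6 genes, 5 were above 0 in every library, as were 69.9% of features with a symbol. At such levels each value may rest on few reads, and a value of 0 is not evidence that the transcript was absent.

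NODAL was highest in conceptus 1, without which its mean was 0.0733 RPKM in place of 0.122 RPKM. Without conceptus 4 the NODAL mean was 0.163 RPKM. Conceptus 1 also had the highest level of POU5F1, an epiblast factor, at 4.14 RPKM against 0.83 to 1.77 RPKM in the others. Of the 7 epiblast markers above 0 in any library, 3 were highest in conceptus 1 (POU5F1, SOX2 and SALL4). The other 4 (NANOG, ZFP42, DNMT3B and LIN28A) were highest in conceptus 2, as was the summed list, which LIN28A and DNMT3B led. The part of epiblast content in the NODAL values was not tested.

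TDGF1, also called Cripto, is the membrane-anchored co-receptor of NODAL, and was at 5.23, 3.75, 3.4 and 2.41 RPKM. NODAL lay below TDGF1 in 4 of 4 conceptuses by −2.04 ± 0.23 on the log2(RPKM + 1) scale. The pseudocount sets the size of this difference, which was −4.20 with a pseudocount of 0.1. FOXH1, a partner of SMAD2 at NODAL targets, was at 0.2 to 0.49 RPKM. Of the genes commonly cited as NODAL or activin targets, the primitive streak genes EOMES, GSC, MIXL1 and T were each at 0.48 RPKM or less. EOMES and MIXL1 were highest in conceptus 3, GSC in conceptus 2 and T in conceptus 1. The endoderm factors SOX17 and FOXA2 were highest in conceptus 1 at 1.45 and 1.33 RPKM. In the others SOX17 was at 0.33 to 0.56 RPKM and FOXA2 at 0.37 to 0.69 RPKM, and both averaged under 1 RPKM.

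TGFBR1, also called ALK5, is the type I receptor for TGF-beta and also serves ligands such as GDF11. It was at 10.2, 14.4, 15.1 and 11.1 RPKM in conceptuses 1 to 4, a mean of 12.7 ± 2.43 RPKM (SD, n = 4). Unlike FST, it was lowest in conceptus 1, and its highest library was 1.49 times its lowest. TGFBR1 lay above BMP2 by 2.09 ± 0.89 and above BMP4 by 2.07 ± 0.35 on the log2(RPKM + 1) scale, each in 4 of 4 conceptuses.

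TGFBR2, the type II receptor with which TGFBR1 forms the TGF-beta receptor, was at 0.62, 0.09, 0.28 and 0.49 RPKM. TGFBR1 was above TGFBR2 in 4 of 4 conceptuses, by 3.32 ± 0.50 on the log2(RPKM + 1) scale. ACVR1B, the type I receptor for activin and NODAL, was at 8.42, 4.4, 4.75 and 8.6 RPKM. TGFBR1 was above ACVR1B in 4 of 4 conceptuses by 0.89 ± 0.70, a difference that was small in conceptuses 1 and 4, where ACVR1B was high and TGFBR1 low. ACVR1C, the alternative NODAL type I receptor, was at 0.07 RPKM or less and listed at 0 in conceptuses 2 and 4.

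Of 18 measured receptors and co-receptors, 10 averaged 1 RPKM or more, against 52.9% of features with a symbol. An average of 5 RPKM or more was reached by 4, against 35.2%, and the list median was 1.40 RPKM. BAMBI, a pseudoreceptor without a kinase domain that dampens BMP and TGF-beta signalling, was at 11.2, 11.6, 11.3 and 12.4 RPKM, second of the list by its mean and nearly level between conceptuses. It was above TGFBR1 in conceptuses 1 and 4 and below it in conceptuses 2 and 3. The TGF-beta co-receptor TGFBR3 was at 5.10 ± 1.22 RPKM, and RGMB, a BMP co-receptor, at 2.17 ± 0.597 RPKM. Of the type II receptors, BMPR2 was at 3.95 ± 0.388 RPKM and ACVR2A at 3.65 ± 0.681 RPKM, and BMPR2 was the higher in 3 of 4 conceptuses by 0.10 ± 0.29 on the log2(RPKM + 1) scale (two-sided exact sign-flip permutation test, p = 0.625). ACVR2A exceeded ACVR2B, at 1.23 ± 0.175 RPKM, in 4 of 4 conceptuses by 1.05 ± 0.12. Of the BMP type I receptors, ACVR1 was at 1.56 ± 0.328 RPKM and BMPR1B at 0.26 to 0.67 RPKM, and BMPR1A was not analysed here. The summed level of the list varied little, from 52.0 to 57.0 RPKM.

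**Figure D2:**
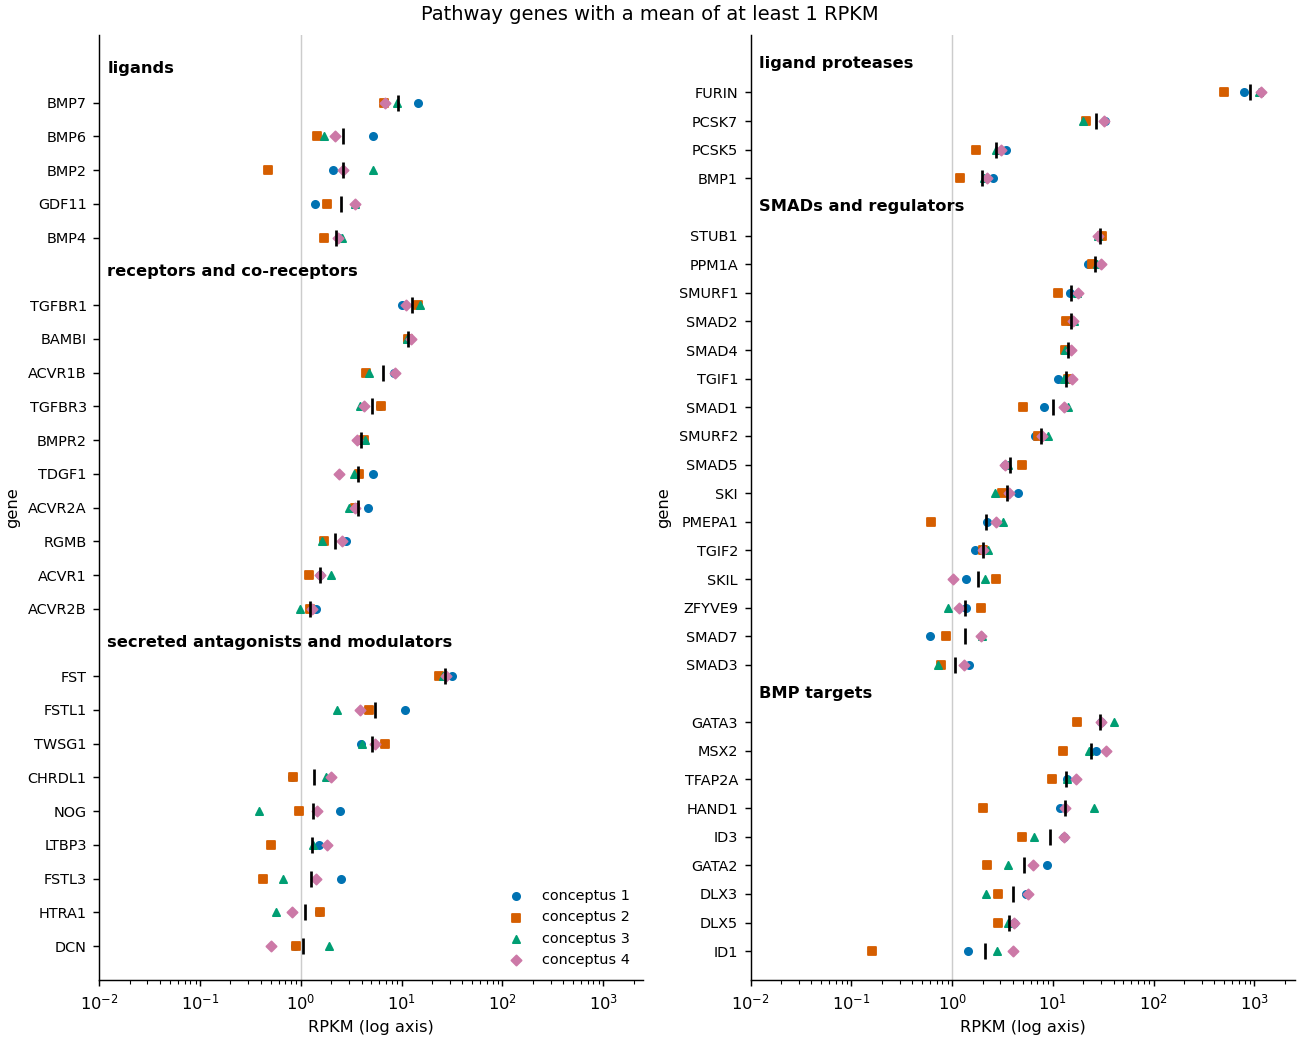
RPKM on a log axis for the pathway genes with an average of at least 1 RPKM, grouped by role, with 1 point per conceptus and the mean as a black bar. FST and FURIN stand highest in their groups, and conceptus 2 is the lowest point for BMP2, HAND1 and ID1.

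Proprotein convertases cut the ligand precursors, and among them FURIN was far above every other pathway gene. FURIN was at 791, 501, 1118 and 1171 RPKM in conceptuses 1 to 4, a mean of 895 ± 312 RPKM (SD, n = 4). PCSK7 was at 26.6 ± 6.95 RPKM and PCSK5 at 2.72 ± 0.717 RPKM. PCSK6, which with furin cleaves NODAL in the mouse, was at 0.06 to 0.34 RPKM, and FURIN was above it by 9.50 ± 0.72 on the log2(RPKM + 1) scale in 4 of 4 conceptuses. BMP1, a protease that cuts chordin and not a BMP ligand, was at 1.99 ± 0.566 RPKM. Of the 7 measured proteases 4 averaged 1 RPKM or more, against 52.9% of features with a symbol.

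Among the intracellular genes, 16 of 19 measured SMADs and regulators averaged 1 RPKM or more, against the 52.9% of features with a symbol. An average of 5 RPKM or more was reached by 8, against 35.2%, and the list median was 3.50 RPKM. SMAD2 was at 14.96 ± 1.21 RPKM and the common partner SMAD4 at 13.95 ± 0.960 RPKM, and both were nearly level between conceptuses. SMAD3 was at 1.07 ± 0.372 RPKM, and SMAD2 exceeded it in 4 of 4 conceptuses by 2.96 ± 0.28 on the log2(RPKM + 1) scale. SMAD1 was at 8.07, 5.04, 14.1 and 12.9 RPKM and SMAD5 at 3.35, 4.89, 3.54 and 3.32 RPKM. SMAD1 was above SMAD5 in 4 of 4 conceptuses by 1.13 ± 0.79, but the 2 genes were almost equal in conceptus 2.

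Among the regulators, the ubiquitin ligase STUB1 was at 29.2 ± 1.57 RPKM and the phosphatase PPM1A at 26.0 ± 3.46 RPKM. The ubiquitin ligases SMURF1 and SMURF2, which act on SMADs and receptors, were at 15.3 ± 3.07 and 7.61 ± 1.04 RPKM, and the corepressor TGIF1 was at 13.4 ± 1.73 RPKM. The inhibitory SMADs were low. SMAD7 was at 0.6, 0.86, 1.96 and 1.93 RPKM, higher in conceptuses 3 and 4, and SMAD6 was at 0.22 to 0.67 RPKM. PMEPA1, an inhibitor of TGF-beta signalling, was at 2.19 RPKM in conceptus 1, 0.61 RPKM in conceptus 2, 3.22 RPKM in conceptus 3 and 2.72 RPKM in conceptus 4.

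Of 124 genes on the role lists, 106 were measured and 53 of these, or 50%, averaged 1 RPKM or more, against the 52.9% of features with a symbol given above. An average of 5 RPKM or more was reached by 24, or 22.6%, against 35.2%. The median over the 106 was 0.992 RPKM and over features with a symbol 1.43 RPKM.

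Genes commonly cited as BMP targets were set beside BMP2 and BMP4. Of 11 measured, 9 averaged 1 RPKM or more, against 52.9% of features with a symbol, and 6 averaged 5 or more, against 35.2%. The list median was 5.21 RPKM. The homeobox gene MSX2 was at 26.8, 12.7, 22.8 and 33.7 RPKM in conceptuses 1 to 4. HAND1, a transcription factor of trophoblast and heart, was at 11.8, 2.04, 25.6 and 13.1 RPKM. ID1, an inhibitor of basic helix-loop-helix factors, was at 1.45, 0.16, 2.78 and 4 RPKM, and its relative ID3 at 13.0, 4.95, 6.53 and 12.7 RPKM. In each of these 4 genes conceptus 2 was the lowest, as it was for BMP2 and BMP4.

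The trophectoderm factors GATA3, at 29.3 ± 9.49 RPKM, TFAP2A, at 13.6 ± 2.92 RPKM, and GATA2, at 5.21 ± 2.88 RPKM, were also lowest in conceptus 2, as was DLX5, at 3.68 ± 0.600 RPKM. DLX3, at 4.01 ± 1.76 RPKM, was lowest in conceptus 3. Conceptus 2 was thus the lowest library for 8 of the 9 targets with an average of at least 1 RPKM. It was the lowest for 25 of the 53 pathway genes at that level, which include these 9. The share was 32.9% over the 8054 features with a symbol at that level. The target MSX1 averaged under 1 RPKM, was not counted, and was lowest in conceptus 3 at 0.18 RPKM. The count was 8 of 9 under both rescalings of the libraries, to equal sums and by median ratios. Their factors, 0.932 to 1.07, were too small to change it. Under them 25.9% or 28.6% of features were lowest in conceptus 2. The count of 8 of 9 was made after the values were seen, the genes are not independent, and no test was made. The summed BMP target level was 116, 55.1, 122 and 127 RPKM in conceptuses 1 to 4. Of the 11 trophectoderm markers, which include GATA2 and GATA3, 4 were lowest in conceptus 2, 4 in conceptus 3 and 3 in conceptus 1. Of the 12 endoderm markers, 6 were lowest in conceptus 2, where the sum of all 12 was 444 RPKM against 529 to 753 RPKM in the others. APOA1 led this sum, at 207 RPKM in conceptus 2 and 234 to 442 RPKM in the others. Of the next highest, RBP4 was lowest in conceptus 2 and DAB2 in conceptus 4. The part of tissue content in these differences was not tested. ID2 was listed at 0 in conceptuses 1 to 3 and at 0.21 RPKM in conceptus 4, and ID1 was above it by 1.37 ± 0.84 on the log2(RPKM + 1) scale, or by 3.48 with a pseudocount of 0.1.

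**Figure D3:**
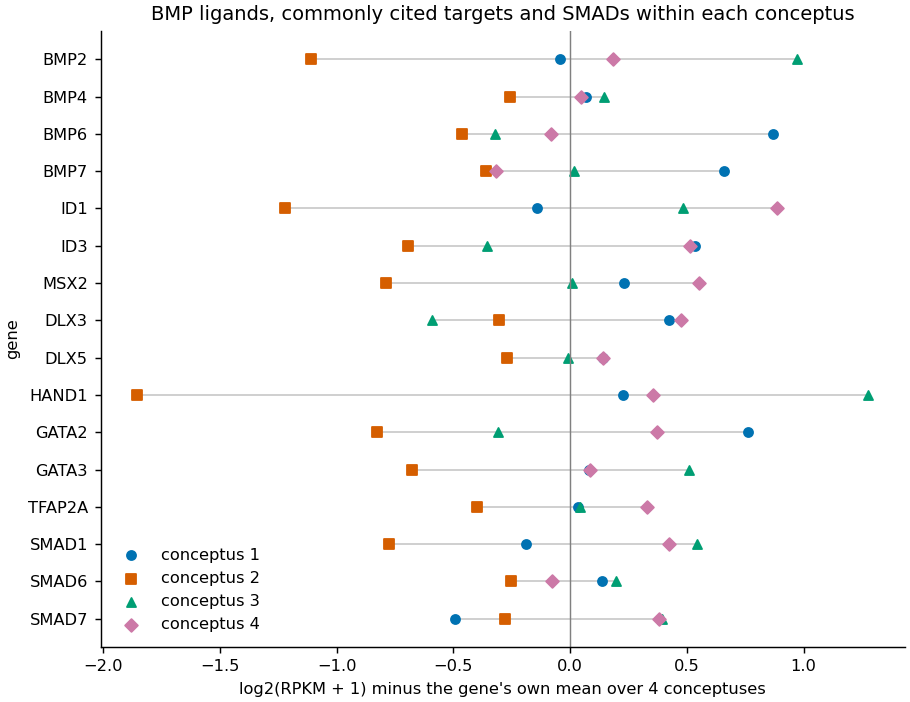
Deviation of each gene in each conceptus from its own mean on the log2(RPKM + 1) scale, for 4 BMP ligands, the commonly cited BMP targets with an average of at least 1 RPKM, and 3 SMADs. Conceptus 2 is the leftmost point for BMP2, BMP4, BMP6, BMP7 and 8 of the 9 BMP targets. DLX3 is lowest in conceptus 3 and SMAD7 in conceptus 1. The 4 ligands were chosen after their values were seen. Not shown are SMAD5, highest in conceptus 2 at 4.89 RPKM, and the ligand GDF11, lowest in conceptus 1 at 1.39 RPKM.

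All pairs of the 6 genes were compared within each conceptus, where both genes come from the same library. In 13 of the 15 pairs the direction was the same in 4 of 4 conceptuses, the exceptions being BMP2 with BMP4 and GDF3 with NODAL. The order was therefore FST, then TGFBR1, then BMP2 and BMP4 together, then GDF3 and NODAL together, and BMP4 was above GDF3 by 1.42 ± 0.26 on the log2(RPKM + 1) scale, or by 2.99 with a pseudocount of 0.1. For each of the 13 pairs p was 0.125 by the exact test (two-sided sign flips), the smallest value that 4 conceptuses allow, and p = 0.144 after Benjamini-Hochberg adjustment over the 15. Of 19 further pairs of related pathway genes, 15 had both genes measured, and 14 had the same direction in 4 of 4 conceptuses with an exact p of 0.125 each and 0.134 after adjustment over the 15. None of these comparisons can pass 0.05 with 4 conceptuses.

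**Figure D4:**
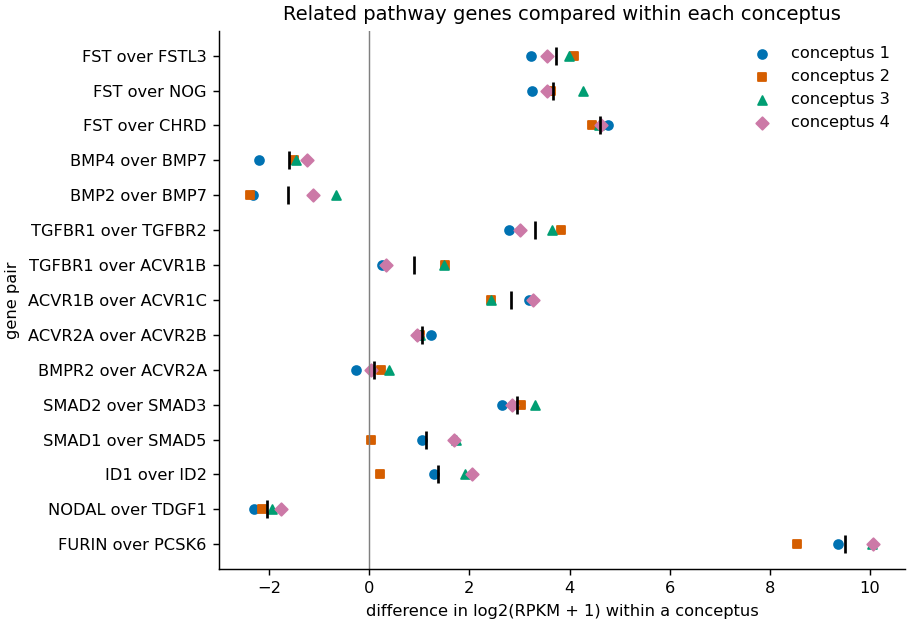
Difference in log2(RPKM + 1) between the genes of 15 related pairs within each conceptus, first gene minus second gene, with the mean as a black bar. FST is above FSTL3, NOG and CHRD and TGFBR1 is above TGFBR2 in all 4 conceptuses, whereas BMPR2 and ACVR2A straddle 0.

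The spread between conceptuses was set beside that of features whose mean lay within 1.5-fold of each gene's own. BMP2 had a coefficient of variation of 76.1%, above 98.0% of 1724 such features, whose median was 27.5%. BMP4, at nearly the same level, had 16.8%, above only 18.1% of its 1635 features, whose median was 29.3%. FST had 13.5% against a median of 19.5% and TGFBR1 19.1% against 20.7%. GDF3 had 47.8% against 62.9% and NODAL 94.6% against 77.5%, in a range of levels where 29.9% and 50.6% of features had a library at 0. Among the 4 genes with an average of at least 1 RPKM, BMP2 alone had its highest library over 2 times its lowest, against 29.3% of 9577 features at that level with no value of 0.

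**Figure D5:**
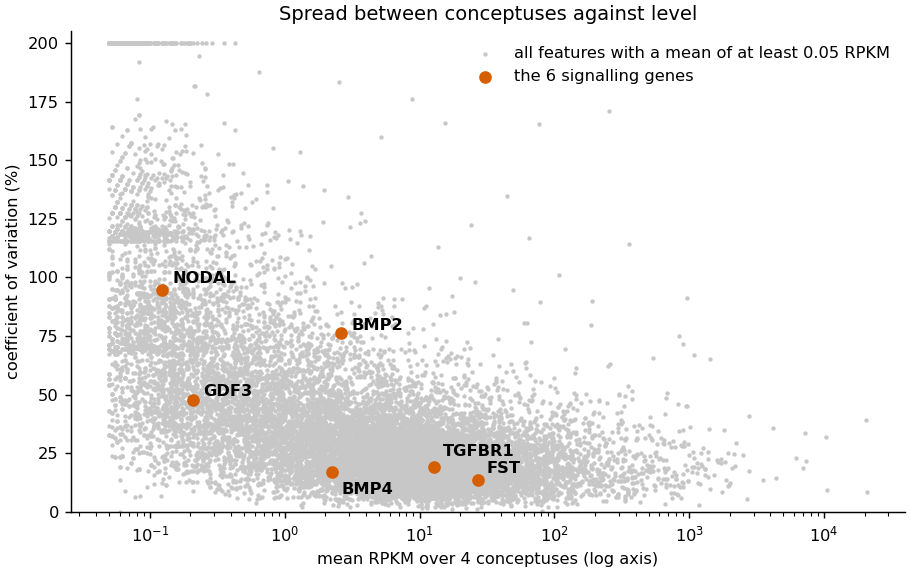
Coefficient of variation over 4 conceptuses against mean RPKM on a log axis, with grey points for all features with an average of at least 0.05 RPKM and orange points for the 6 genes. BMP2 at 76.1% stands above most features of its level, and BMP4 at 16.8% lies below most.

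The features most like each gene were found by the root mean square difference of log2(RPKM + 1) over the 4 conceptuses, after each gene's own mean was subtracted, among 8053 other features with a symbol and a mean of at least 1 RPKM. For BMP2 the nearest were EPSTI1 at 0.07, NPDC1 at 0.08 and ANXA4 at 0.08, and only 3 features lay within 0.1. EPSTI1, an interferon-responsive gene, was at 8.96, 3.62, 20.5 and 11.8 RPKM in conceptuses 1 to 4, in the same order of conceptuses as BMP2. It was picked for its likeness to BMP2, so the shared order is no separate result. For BMP4 the nearest were PRR11 at 0.019, HES1 at 0.020 and TPP1 at 0.025, and 256 features lay within 0.1. For FST they were PLCG1 at 0.014, TRAF3IP1 at 0.015 and KDM4A at 0.016, with 428 within 0.1, and for TGFBR1 they were PSMA4 at 0.012, PSME4 at 0.013 and MAPK9 at 0.020, with 234 within 0.1. The median distance was 0.785 for BMP2, 0.277 for BMP4, 0.256 for FST and 0.354 for TGFBR1. The counts within 0.1 therefore also follow each gene's own spread. With 4 values per gene, many genes share a flat profile and likeness is a description of these libraries.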

How the data were processed

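RNA of 4 conceptuses was analysed as 1 group, with no replicate pooled. RPKM values were computed and deposited by the authors. The unit is named for a smaller deposited table of the 5527 features at 5 RPKM or more in every library, and these values equal those in the full table of 25197 features used here. Per the submitters' processing notes, the genome build was Oar_v3.1. The aligner, counter, annotation release and strand setting remain not given in the sources used here, and neither is which libraries shared a sequencing chip. RPKM hold no read counts, so counting intervals cannot be given and a value of 0 is reported as listed at 0. Symbols come from the table; 15226 features have one. Sequences and positions are not used here.

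Means are given with SD over the 4 conceptuses. Gene pairs were compared on log2(RPKM + 1), a pseudocount of 1, with an exact sign-flip permutation test, two-sided, and Benjamini-Hochberg adjustment. No model was fitted across features. Relative depth was read from the most frequent ratio over features above 0 in exactly 2 libraries, and 31.0% to 45.8% of these features lay near it, so it is rough. The profile and permutation steps were tested on simulated data. The 6 genes, the role lists, markers and pairs were chosen with earlier results of these data known. A gene of the NODAL and activin target list is not reported here and was left out of all counts, so no count is given for that list. Named genes are the 6, both genes of each pair, pathway genes averaging 1 RPKM or more, the 5 highest of each marker list and the 3 nearest profiles. Others (CER1, INHBA, GDF6, BMPR1B, SMAD6, FOXH1, MSX1, SOX2, NANOG, SOX17, FOXA2, EOMES, GSC, MIXL1, T, TGFB1, TGFB2, TGFB3 and genes listed at 0) were named after their values were seen. Alternatives were another pseudocount, other thresholds, rescaled libraries and leaving out each conceptus. Python 3.11.15, numpy 2.4.6, pandas 2.3.3 and matplotlib 3.10.9 were used.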

Additional observations from a re-analysis of the deposited data

Results flagged for a closer look

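Each of 55 genes, the 6 and the pathway genes averaging 1 RPKM or more, was checked for a conceptus lying far from the other 3, measured by its distance to the closest of them as a share of the gene's range. Of these, 2 genes passed the 95% critical value, and chance gives about 1 in 20 genes, or 2.75. GDF3 was at 0.06 RPKM in conceptus 3 and at 0.24 to 0.27 RPKM in the other conceptuses. SMAD5 was at 4.89 RPKM in conceptus 2 and at 3.32 to 3.54 RPKM in the others.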

How the results depend on the processing

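No paired analysis was possible because the samples form 1 group with no second group to pair them with; gene pairs were compared within each conceptus. With a pseudocount of 0.1, each pair difference among the 6 genes and among the related pairs kept its direction. A pair with the same direction in every conceptus keeps it under any pseudocount. Only BMP2 with BMP4, GDF3 with NODAL and BMPR2 with ACVR2A could have changed. No pair could pass 0.05 in any setting, with 4 conceptuses or fewer. The size of the difference moved by over 1.5 times in 12 of 30 pairs, all but BMP2 over BMP4 with a gene averaging under 1 RPKM. Those not given above include FST over NODAL at 7.08, TGFBR1 over NODAL at 5.99, TGFBR1 over GDF3 at 5.43 and ACVR1B over ACVR1C at 5.70. Leaving out 1 conceptus put the difference of BMP2 over BMP4 between −0.30 and 0.26 and that of BMPR2 over ACVR2A between −0.00024 and 0.22 on the log2(RPKM + 1) scale. The BMP2 and BMP4 difference was above 0 without conceptus 1, at 0.01, and without conceptus 2, and the BMPR2 and ACVR2A difference was below 0 without conceptus 3. Every mean of the 6 genes moved by less than its SD under both rescalings. The scaling factors, 0.932 to 1.07, were too small to move any of these means by its SD, so the rescalings are no check of the means. Leaving out 1 of 4 values can never move a mean by its SD, so the omissions are no check of them either. The omissions put the BMP2 mean between 1.72 and 3.31 RPKM. Scaling to equal sums shifted conceptus 4 by −0.10 on the log2 scale, the largest shift of a library. The coefficient of variation of FST was 8.21% after scaling by median ratios. At a mean of at least 5 RPKM, in place of 1 RPKM, 2 of the 6 genes and 24 of the 106 pathway genes remained by construction. Read counts behind the low values of NODAL and GDF3 are unknown.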
